A study of Dunaliella salina with 9 samples.

Results

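In cultures of the green alga Dunaliella salina, 134 transcript clusters took fewer of the sequenced reads under blue light than under white or red light. They were chosen by their values. A member had a mean of at least 10 CPM (counts per 1e6, the count divided by the total of its library, times 1e6) over all 9 libraries, and its highest blue library was at most 1/1.5 of the lowest white or red library. Of 115975 clusters, 10739 had that mean, and 134 of these met the rule. As all 9 libraries chose the members, their fall in blue is a description and no finding. The difference of red from white has no limit of its own in the rule and was tested, but it is not independent of the choice, since blue and red are both set against the same white libraries. The rule also sets red above blue in every member, so that clusters with a fall in red as deep as in blue are left out.

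Total RNA was sequenced from algae in mid-exponential growth that were spun down, moved to fresh medium and kept under 1 of 3 lights. The groups were blue light of 450 nm (3 libraries), red light of 660 nm (3 libraries) and cool white light (3 libraries), all with a photon flux of 50 µmol per square metre and second. All cells had been grown before at 22 ± 1°C under cold white fluorescent lamps with 14 h of light and 10 h of darkness. The strain and the time under each light are not given in the sources used here. The series calls the 9 samples biological; should some share a culture, p-values cover only the spread among samples, which may be technical. Dates and batches are not given either, so that a batch and the light cannot be told apart.

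D. salina is a salt-tolerant alga without a rigid cell wall, known for storing β-carotene in its chloroplast. Chlorophyll absorbs both blue and red light. Green algae sense blue light through cryptochromes and phototropins, receptors that bind a flavin, and blue light is known to act on photosynthesis genes and the cell cycle in the related alga Chlamydomonas. The files hold identifiers without gene names, and no identifier matched the 16683 genes of the RefSeq table for the D. salina assembly Dunsal1. The members are therefore described by their levels, lengths and patterns, not by function, and pathways and marker genes are not analysed here. One cluster need not be one gene, since isoforms and alleles can form clusters too.

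Libraries held between 16279167 (white 3) and 24526786 counts (red 1). White libraries varied more among themselves than the others. Among the clusters with that mean, the median coefficient of variation within a light was 7.65% in blue (10713 clusters with counts there), 6.93% in red (10712) and 22.9% in white (10557). The members varied by 6.87% in blue, 4.71% in red and 15.9% in white, and the rule favours clusters of low spread. Counts of the members were high, with a median of 3048 per member over the 3 blue libraries. Under 50 counts in blue were found for 6 members, which together held 0.177% of the members' summed mean CPM.

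The members took 3.65%, 3.85% and 3.94% of all counts in blue 1 to 3, against 9.00%, 9.01% and 9.26% in red 1 to 3 and 9.55%, 10.4% and 10.1% in white 1 to 3. The means were 3.82% ± 0.15 in blue, 9.09% ± 0.15 in red and 10.0% ± 0.43 in white (SD, n = 3 each). Blue lies apart from both, as the rule requires. The red and white libraries did not overlap either, with the lowest white library at 9.55% and the highest red one at 9.26%. CPM was also scaled by TMM, which sets the libraries on a common level by the bulk of their clusters. The members' summed CPM, divided by 1e4, then had means of 3.41 in blue, 8.77 in red and 12.0 in white. These are scaled levels and no longer shares of counts.

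**Figure D1:**
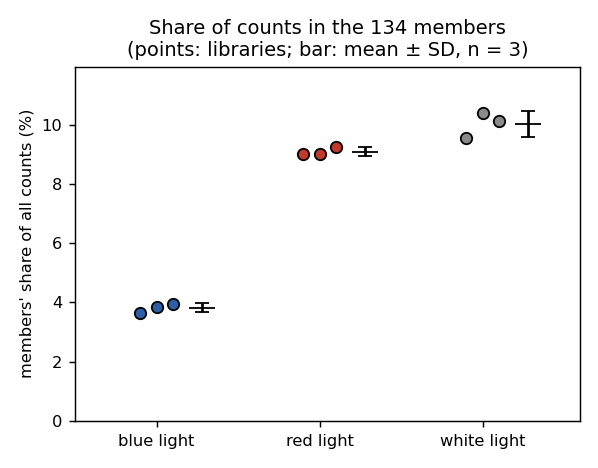
Share of all counts in the 134 members (vertical axis, percent) for each library under blue, red and white light; points are libraries and bars the mean ± SD (n = 3). The blue libraries lie between 3.65% and 3.94%, below every red (9.00% to 9.26%) and white (9.55% to 10.4%) library.

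A small number of members held most of these reads. The 9 members with the most reads held over 50% of the members' summed mean CPM, and the top 25 held 78.3%. Of the 100 clusters with the most reads in each light, 5 were members in blue, 18 in red and 22 in white. In FPKM (counts per kilobase and per 1e6 counts of the library, the unit that allows levels of different clusters to be compared), the members' mean levels ran from 0 to 5875 in blue with a median of 53.4, from 0.47 to 13661 in red with a median of 115, and from 3.75 to 14125 in white with a median of 150. At least 1000 FPKM was reached by 8 members in blue, 20 in red and 25 in white.

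Cluster-15686.47805 (effective length 746 bases) had the most reads and the highest FPKM of the members. It had 3864, 4480 and 4916 CPM in blue, against 10460.3, 9892 and 9997 CPM in red and 8993, 11893 and 10899.9 CPM in white. Red and white overlapped, with the red libraries inside the range of the white ones. Its mean FPKM was 5875 ± 672 in blue, 13661 ± 482 in red and 14125 ± 1900 in white (SD, n = 3). The difference of red from white did not pass the test, with a log2 fold change of -0.38 ± 0.17 (SE, edgeR adjusted p = 0.12); without white 1 it was -0.55 (edgeR adjusted p = 0.011).

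**Figure D2:**
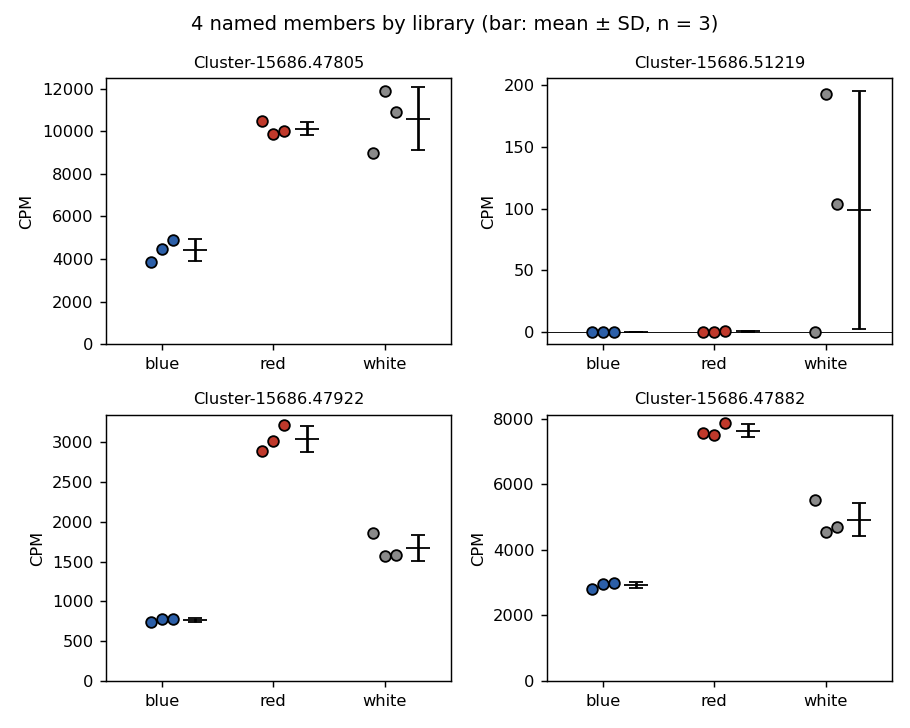
CPM (vertical axes, each from 0 or just below) of the 4 members named by identifier, for each library under blue, red and white light; points are libraries and bars the mean ± SD (n = 3). In Cluster-15686.47805 red and white overlap, in Cluster-15686.47922 and Cluster-15686.47882 every red library lies above every white one, and in Cluster-15686.51219 only white 2 (193 CPM) and white 3 (104 CPM) stand out.

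The member with the next highest number of reads (1382 bases) had CPM values close to these. They were 4356, 4469 and 4952 in blue, 9730.5, 8974 and 8984 in red and 9052, 11339 and 10608 in white. Unlike the first, it passed the test of red against white, with a log2 fold change of -0.48 ± 0.15 (SE, edgeR adjusted p = 0.042); whether these 2 clusters differ was not tested. Among the 22 members above 1000 CPM, the one of rank 6 by reads (1068 bases) had the deepest fall in blue, with 818, 829 and 685 CPM in blue, 3895, 3893 and 3883 CPM in red and 4192, 3883 and 3836 CPM in white. In that cluster red and white overlapped on the CPM scale and both were about 5 times as high as blue, with a ratio to the blue mean of 5.01 in red and 5.11 in white. With TMM scaling it was called lower in red than in white, with a log2 fold change of -0.33 ± 0.09 (SE, edgeR adjusted p = 0.022). The member of rank 7 was short, at 278 bases, and had rank 2 by FPKM. It had 639, 784 and 863 CPM in blue, against 3053, 3033 and 3020 CPM in red and 3167, 3617 and 3332 CPM in white. Its red libraries lay just below its white ones.

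For most members the fall in blue was moderate. On the CPM scale, the red mean was 2.19 times the blue mean in the median member with counts in blue, and the white mean 2.83 times. The fall from white was larger with TMM scaling. There the members' median edgeR log2 fold change was -1.93 for blue over white and -1.245 for blue over red. The lowest white or red library was at least 2 times the highest blue one in 44 members, at least 3 times in 10 and at least 5 times in 3. The last members inside the limit had ratios of 1.50 (23.2 CPM in the highest blue library, 34.9 CPM in the lowest other) and 1.51, and the first clusters outside it 1.499 and 1.498. On the limit of mean CPM, the nearest member had 11.4 CPM, and the nearest cluster outside that met the fold had 9.66 CPM. In edgeR's quasi-likelihood test, the 134 members were all called lower in blue than in white (adjusted p under 0.05), where 14.7% of all tested clusters were called lower, and 104 were called lower in blue than in red, where that share was 1.02%. Of the 10733 tested clusters with a mean of at least 10 CPM, 3088 were called lower in blue than in white and 350 lower than in red. Both contrasts were used by the rule, so nothing is read from these counts.

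The largest ratios of white to blue, a ratio that the rule limits, were found mostly in members with few reads. The white mean was at least 10 times the blue mean in 12 members, counting the 2 without any counts in blue. In 8 of the 12 the red mean was under 10 times the blue mean. The median white mean of the 12 was 49.3 CPM, with a range from 29.5 to 1997 CPM, against a median of 169 CPM over all members. The blue mean was under 10 CPM in 11 of them and the red mean in 9, so that most reached the limit of 10 CPM through white. Their median red to white ratio was 0.10, and 11 of the 12 were called lower in red than in white; of all clusters with the mean and white at least 10 times blue, 88.2% were, so that nothing particular to the 12 is read from it. The most abundant of them (1506 bases) had 65.7, 91.1 and 95.7 CPM in blue, 158, 160.1 and 151 CPM in red and 1409, 2397 and 2186 CPM in white. Another (2685 bases) had 4.08, 5.36 and 7.22 CPM in blue, 34.5, 32.4 and 31.0 CPM in red and 531, 178 and 311 CPM in white. In the cluster of 1506 bases the red mean was 1.86 times the blue mean and 0.078 times the white mean. In the cluster of 2685 bases these ratios were 5.88 and 0.096.

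Cluster-15686.51219 (1221 bases) shared the lowest ratio of blue to the other lights, 0, with 1 other member, and is named as the one with more reads. It had no counts in the 3 blue libraries. It had 7.87, 5.62 and 23.3 estimated counts in red 1 to 3, or 0.321, 0.318 and 1.07 CPM, and 3.16, 3839 and 1688 counts in white 1 to 3, or 0.173, 193 and 104 CPM. White 1 is thus as low as red, and 2 white libraries carry the cluster's mean. Against a limit of 3 counts over the blue group, the pooled counts were at least 10.8-fold lower in blue than in red and at least 1910-fold lower than in white, a bound that white 1 alone does not reach. These limits cover counting error only. The fall of red against white had an edgeR adjusted p of 0.042, 0.45 with limma-voom, and between 0.00095 and 0.14 when 1 library was left out, with values of at least 0.05 in 8 of these 9 fits. The other member without counts in blue (1190 bases) had 2.13, 1.63 and 1.67 CPM in red and 23.2, 49.9 and 36.0 CPM in white.

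Red light was then set against white light. Most members were also lower under red light than under white light, with blue lower still, as the rule requires. In red, 95 of the 134 members fell and 2 rose relative to white (edgeR, p under 0.05 after Benjamini-Hochberg adjustment over all 38376 tested clusters). Over all tested clusters, 16.9% were called lower and 17.0% higher. Over the 10733 tested clusters with a mean of at least 10 CPM, the shares were 30.8% lower and 16.9% higher. The comparisons of blue and of red with white use the same 3 white libraries, and the rule places all members below white in blue. Of the 3088 clusters with that mean that were called lower in blue than in white, 80.9% were called lower in red too. The members' 70.9% was no higher than that. The rule also keeps red above blue in every member, a limit that those 3088 clusters need not meet. It leaves out clusters that fell as far in red as in blue. The shares are therefore not of like sets, and neither an excess nor a lack in the members is read from them. The label of these clusters, lowered only by blue light, still does not describe the 95 members that fell in red as well. The median log2 fold change of red over white was -0.72 in the members and -0.09 over the clusters of that mean, a difference of -0.63. With library totals as the only scaling these medians became -0.41 and 0.20, a difference of -0.61, and 63 members fell and 7 rose, against 20.2% and 24.1% of the clusters of that mean.

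**Figure D3:**
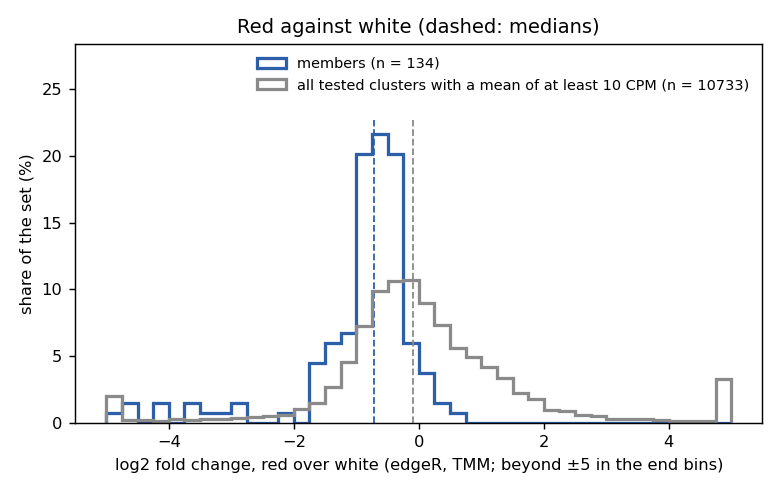
Log2 fold change of red over white (horizontal axis, edgeR with TMM scaling; values beyond ±5 are in the end bins) as a share of the set (vertical axis, percent) for the 134 members and for the 10733 tested clusters with a mean of at least 10 CPM. Dashed lines mark the medians, -0.72 for the members and -0.09 for all.

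The number that fell in red depended on the libraries used. It was 51 without red 1, 52 without red 2, 63 without white 3 and 114 without white 1, where 18.9%, 19.5%, 21.9% and 38.4% of the clusters with that mean were called lower. The spread in this test is pooled over all 3 lights although white varied most.

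Counted by library on the CPM scale, all 3 red libraries lay below all 3 white ones in 80 members (59.7%) and above them in 8, and the groups overlapped in 46. Among the 10739 clusters the shares were 25.2% below and 39.3% above. With TMM scaling, red lay below white in 95 members and above in 3, against 34.8% and 29.0% of the clusters. These shares are not limited to clusters lower in blue than in white, as all members were. No excess of the members is read from them.

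The 95 members that fell in red had a median log2 fold change of -0.82 and ran from -7.77 to -0.33. Of these 95, 33 fell at least 2-fold and 9 at least 8-fold. Of the 3302 clusters with the mean that were called lower, 1497 and 364 did, which are larger shares. Over all 10733 tested clusters with the mean, these were 13.9% and 3.39%. Together the 95 members held 2.12% ± 0.079 of the counts in blue, 4.73% ± 0.054 in red and 6.19% ± 0.43 in white (SD, n = 3). The member of rank 4 by reads (820 bases) belonged to them, with 2374, 2482 and 2398 CPM in blue, 4679, 4777 and 4879 CPM in red and 5961, 7266 and 6840.2 CPM in white. The 3 lights formed 3 separate steps in that cluster, with blue lowest and white highest.

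The 37 members that did not pass in red held 1.33% ± 0.059 of the counts in blue, 3.29% ± 0.059 in red and 3.17% ± 0.071 in white. Their median log2 fold change of red over white was -0.34 with TMM scaling, with a range from -1.7 to 0.26, and 31 of the 37 were below 0. On the CPM scale their median red to white ratio was 0.977. On that scale the red mean was 2.37 times and the white mean 2.40 times the blue mean (medians). A p that misses the threshold does not show that red and white were equal. The member of rank 5 by reads (1021 bases) was among them, with 1930.2, 1969 and 1817 CPM in blue, 5908, 5801 and 5863 CPM in red and 4922, 4445 and 4708 CPM in white. Its red libraries lay above its white ones on the CPM scale, and with TMM scaling the log2 fold change was 0.02 ± 0.07 (SE, edgeR adjusted p = 0.83).

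Only 2 members rose in red relative to white while being lower in blue than in both. Cluster-15686.47922 (938 bases) had 735, 773 and 780.3 CPM in blue, 2891, 3021 and 3216 CPM in red and 1859, 1569 and 1584 CPM in white. Its red libraries lay above all others, with a log2 fold change from white of 0.57 ± 0.09 (SE, edgeR adjusted p = 0.0027). It passed in all 17 alternative fits, with log2 values from 0.50 to 0.87. Its red mean was 3.99 times and its white mean 2.19 times its blue mean. Cluster-15686.47882 (1482 bases), of rank 3 by reads, had 2808, 2964 and 2993 CPM in blue, 7559, 7508 and 7863 CPM in red and 5509.5, 4557 and 4705 CPM in white. Its log2 fold change of red over white was 0.34 ± 0.08 (SE, edgeR adjusted p = 0.015), with an adjusted p of 0.073 without white 3 and 0.051 in a fit of red and white alone. Its white mean was 1.69 times its blue mean, the smallest such ratio among the members with counts in blue, while its red mean was 2.62 times the blue mean.

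**Figure D4:**
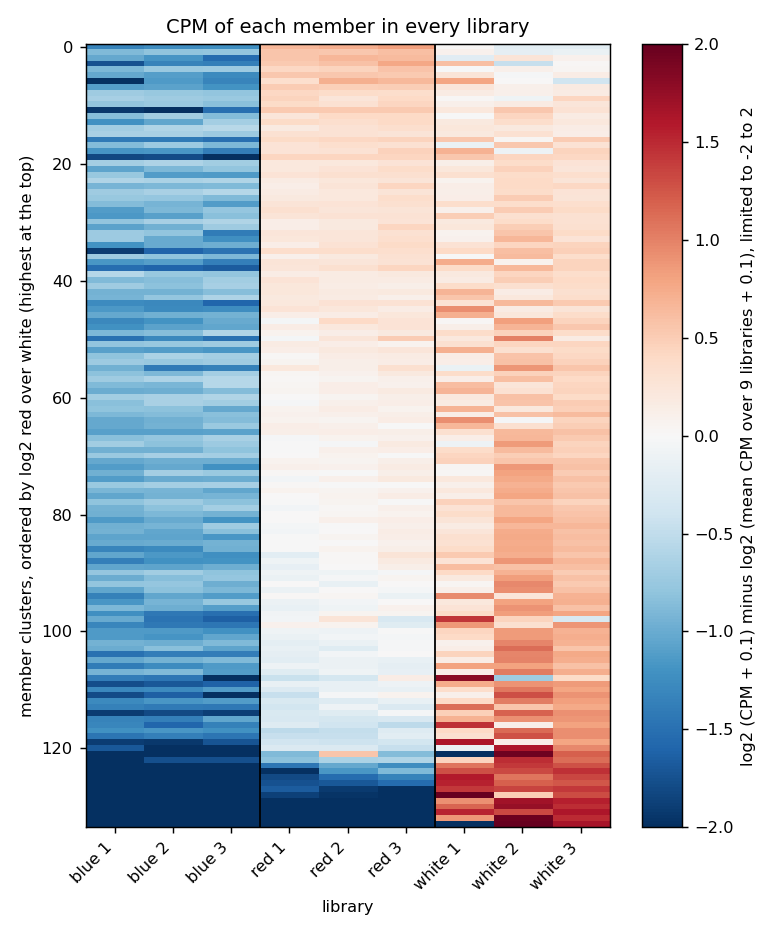
CPM of the 134 members (rows, ordered by the log2 fold change of red over white, highest at the top) in the 9 libraries (columns), as log2 (CPM + 0.1) minus log2 of the member's mean CPM + 0.1, limited to -2 to 2. Blue columns are low throughout, and red columns pass from above white at the top to far below white at the bottom. In the bottom rows red and blue can both lie beyond the limit of -2 and then share the same colour. The white columns are the least even, with white 1 often apart from white 2 and 3.

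Within a light, the order of the libraries was alike in many members. In white, 67.9% of the members were lowest in white 1 and 67.2% highest in white 2, while of all clusters with the mean 57.7% were highest in white 1 and 55.3% lowest in white 2. In red, 67.2% were highest in red 3 and 64.2% lowest in red 1, against 33.0% and 34.0% of all clusters. In blue, 45.5% were highest in blue 3 and 46.2% lowest in blue 1, against 27.8% and 30.6%. These shares have no test, and members are not replicates of each other.

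The rule was also applied to 8 libraries at a time, and the fold was then looked up in the ninth. Without blue 1, 157 clusters were chosen, and blue 1 itself met the same fold in 86.0% of them. Without blue 2 it was 87.7% of 154 clusters, and without blue 3 79.4% of 170. A single blue library met that fold in 2.78% to 3.28% of all clusters with the mean. When a red library was left out, 84.5% to 97.8% of the chosen clusters met the fold in it, against 5.09% to 5.61% of all clusters with the mean. When a white library was left out, the share was 88.5% to 99.2%, against 10.4% to 13.7%. The clusters that met the fold in the ninth library were nearly all among the 134 members. These shares thus restate how many more clusters 8 libraries chose, and they are no independent support. The shares over all clusters are of clusters not chosen beforehand.

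The members were more abundant and shorter than other clusters above the limit. Their median mean CPM was 121, against 27.2 over all 10739 clusters. They made up 0.327% of the clusters with 10 to 30 CPM, 1.11% from 30 to 100 CPM, 4.3% from 100 to 1000 CPM and 13.3% (22 of 166) above 1000 CPM. The rule favours clusters of low spread, and its part in these shares was not tested. The same rule turned round for the other patterns took clusters of lower abundance. The 161 clusters lower only in red had a median mean CPM of 27.3, and the 185 higher only in blue one of 36.0. Those lower only in red held 1.39% ± 0.38 of the counts in blue, 0.471% ± 0.0026 in red and 4.70% ± 0.58 in white, and those higher only in blue held 5.16% ± 0.19 in blue, 2.40% ± 0.038 in red and 1.60% ± 0.39 in white.

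The median effective length of the members was 1182 bases, with quartiles of 902 and 1623, against 1859 bases over all clusters with the mean. Lengths ran from 128 to 7693 bases. Members were shorter than the other clusters of like abundance from 10 to 30 CPM (1194 against 1771 bases), from 30 to 100 CPM (1192 against 2037) and from 100 to 1000 CPM (1093 against 2020). Above 1000 CPM the medians were close, at 1145 bases in the 22 members and 1068 in the 144 others. The members' median red to blue ratio was 2.20 under 1000 bases, 2.10 from 1000 to 2000 bases and 2.25 above. The median white to blue ratios were 2.96, 2.79 and 2.72 in the same order. The rule limits both ratios, so nothing is read from how they vary with length. These are descriptions without a test.

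**Figure D5:**
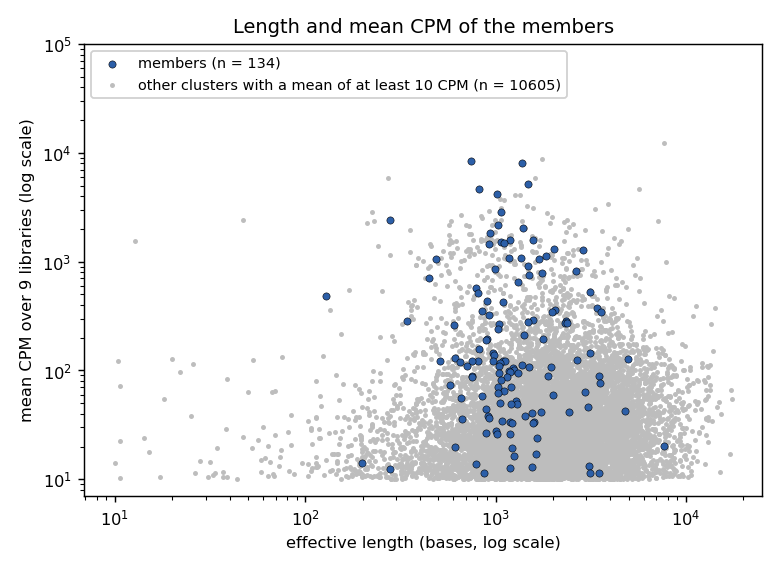
Effective length in bases (horizontal log axis) and mean CPM over the 9 libraries (vertical log axis) of the 134 members and of the other 10605 clusters with a mean of at least 10 CPM. Members lie mostly around 1000 bases (median 1182), and 22 of them exceed 1000 CPM.

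The member with the shortest effective length (128 bases) had rank 6 by FPKM and rank 33 by reads. It had 143, 191 and 186 CPM in blue, 695, 725 and 824 CPM in red and 729.7, 349.5 and 489 CPM in white. Red and white overlapped, as white 1 lay above red 1. The longest member (7693 bases) had the lowest mean FPKM of all, with 7.12, 8.15 and 7.07 CPM in blue, 19.7, 23.9 and 28.8 CPM in red and 23.4, 40.6 and 22.7 CPM in white.

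The deposited counts, given to 2 decimals, were exact whole numbers in all 9 libraries for 40 members (29.9%) and for 31.8% of all clusters with the mean. Counts that are not whole can arise where reads are shared out between clusters, which was not tested. Of the 40 members with whole counts, 30 fell in red relative to white, where 39.5% of the 3416 tested clusters with whole counts and that mean did. That share is not limited to clusters called lower in blue than in white, as all members were. Among such clusters with the mean, with or without whole counts, 80.9% fell in red. No excess of the members is read from it. All members carried identifiers that start with Cluster-15686, as did every cluster with a mean of at least 10 CPM, so the prefix sets no group apart.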

How the data were processed

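The 9 deposited tables, 1 per library, list 115975 clusters with their read count and FPKM. Per the labels' protocols, the NEBNext Ultra RNA kit was used on 1.5 µg of RNA. The submitters' processing notes name DESeq 1.10.1. The aligner, counter and assembly are not given in the sources used here. The deposited counts are estimated counts, unscaled, with 21.6% to 33.9% of values per library not whole. The FPKM values were deposited by the authors and gave effective lengths here (median over libraries with at least 50 counts) and levels per length. Of the FPKM values with a count of at least 1000, 90.84% lay within 1% of the count per effective length and library total. Rounded counts were filtered with edgeR's filterByExpr (10 per library, 15 in total), which 38376 clusters and all 134 members passed, scaled by TMM and tested by robust quasi-likelihood (edgeR 4.0.16, R 4.3.3), all 9 libraries in 1 fit with light as the only term. P-values were adjusted after Benjamini-Hochberg across the tested clusters of a contrast, with 0.05 as the threshold, and standard errors derive from the F value. The code was tested on simulated data. Alternatives were RLE factors, library totals, DESeq2 1.42.0, limma-voom (limma 3.58.1), other filters and thresholds, only the groups compared, a replicate block and each library left out. The members and lists were chosen with earlier results of these data known. Identifiers printed are the member with the highest mean CPM, the one with the lowest ratio of blue to the others (of 2 at 0, the one with more reads), and the 2 with the largest rise in red against white among those past the threshold with no overlap. Other members described were chosen after their values were seen. The reading of the left-out library and the subset with whole counts were added after seeing the data.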

Additional observations from a re-analysis of the deposited data

How the results depend on the processing

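The number of members was 210 with TMM-scaled or RLE-scaled CPM, among them all 134, 276 with the looser fold limit, and 44 and 10 with a fold of 2 and 3; leaving out 1 library gave 131 to 170. The 95 members that fell in red against white became 63 with library totals, 48 at an adjusted p of 0.01, 33 with a 2-fold minimum, 30 among the 40 with whole counts (fewer members by construction) and 51 to 114 with 1 library left out. The 2 that rose became 7 with library totals, 1 in a fit of the groups compared, 1 at an adjusted p of 0.01 and 1 to 2 with 1 library left out. Of the 210 members by the rule on TMM-scaled CPM, 121 fell in red against white and 4 rose. With a 2-fold minimum, or among whole counts, 0 rose in edgeR, and 0 also at an unadjusted p under 0.05 and with DESeq2 and limma-voom. Members with red above white in every library, 8 on the CPM scale, were 3 with TMM, 2 with RLE and 8 to 12 with 1 library left out. Of the 134, 104 were called lower in blue than in red, which became 63 with the replicate block, 45 at an adjusted p of 0.01 and 41 to 129 with 1 library left out. The members' summed CPM divided by 1e4 was 3.41 in blue, 8.77 in red and 12.0 in white with TMM scaling. With library totals it is their share of counts, 3.82%, 9.09% and 10.0%. Libraries share only a number: same-numbered libraries deviated together with r from -0.038 to 0.121, and with the replicate block 83 members fell in red. The median log2 of the members minus that of all clusters with the mean kept its sign in all 17 alternative fits, from -0.77 to -0.48. The rule sets white above blue in every member, and red is compared with the same white libraries. This sign is therefore not independent of the choice and is no support of its own. No named member reversed. Except where stated, the cause was not tested. With 3 libraries a light, small differences between red and white may have been missed in the 37 members without a call.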
